A study of Danio rerio with 44 samples.

Results

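The enzymes that build, desaturate and lengthen fatty acids were followed in whole zebrafish embryos, together with SREBF1, the transcription factor known for switching many of their genes on. The set was defined by a list chosen with earlier results of these data known, though no threshold on a measured value entered the rule. The list held 10 gene symbols: srebf1, acaca, acacb, fasn, scd, scdb, elovl2, elovl5, elovl6 and fads2. Of these, 9 matched an identifier in the count table of 25859 gene identifiers, and all 9 had enough counts to be tested. The symbol fads2 matched no identifier in the name table. The desaturase identifier ENSDARG00000019532, which that table calls FADS3, is described beside the set and is not counted in it. A RefSeq gene list has fads2 and no fads3, so this identifier may be the listed fads2, which was not settled here. Symbols are written as that table has them.

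Wild-type embryos were exposed from 24 to 96 hours after fertilization, for 72 h, to FBSA (perfluorobutanesulphonamide), PFOS (perfluorooctane sulphonate) or PFECHS (perfluoroethylcyclohexane sulphonate) at 0.001, 0.1, 1 or 5 mg/L. Each compound had solvent controls of its own, and controls and exposed embryos alike were held in 0.1% DMSO. The compounds are fluorinated surfactants: PFOS carries a straight chain and a sulphonate head, PFECHS a ring with the same head, and FBSA a shorter chain with a sulphonamide head. RNA came from 44 pools of 20 embryos in 15 groups, 3 pools a group except FBSA at 0.1 mg/L with 2. A pool is the replicate, so the p-values measure spread between pools, taken for each gene over all 15 groups together. Nothing in the labels says whether the pools came from separate clutches. In whole-embryo RNA, fewer cells of a type and less RNA per cell cannot be told apart.

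Fatty acid synthesis starts when acetyl-CoA carboxylase turns acetyl-CoA into malonyl-CoA. Fatty acid synthase then adds malonyl units until palmitate is released, stearoyl-CoA desaturase inserts a double bond into the saturated chain, and elongases of the ELOVL family lengthen it. In vertebrates SREBP1, the product of SREBF1, is made as a membrane-bound precursor and activates these genes after it has been carried to the Golgi and cleaved there. A fish embryo of this age still draws much of its lipid from the yolk, so its tissues handle stored fatty acids as well as making their own.

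Library totals ranged from 24478738 to 36533705 counts. Levels are given in CPM, counts scaled to the library's size with TMM factors, and since no gene lengths come with the counts they are compared between libraries of a gene and never between genes. The first principal component of log2 CPM held 29.2% of the variance and separated pools of one group: in FBSA controls 1, 2 and 3 its scores were 48.8, 54.3 and -67.3, and in FBSA 5 mg/L pools 1, 2 and 3 they were -65.9, 31.1 and -66.9. The last 11 columns of the table hold 7 of the 14 FBSA libraries, 2 of the 3 FBSA controls among them, but 0 of the 3 libraries of FBSA at 5 mg/L. The first 33 columns are thus left with 1 FBSA control and 1 pool at each lower FBSA concentration, so that a fit on those 33 libraries takes the spread of these lone pools from the other groups. Within groups, those 11 libraries differed from the first 33 at an adjusted p under 0.05 in 29.4% of genes.

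Against their controls, edgeR called members of the set at 5 mg/L FBSA alone. At every other concentration of the 3 compounds it called 0.0176% of all genes or fewer. At 5 mg/L FBSA, 2 of the 9 genes passed the test, SREBF1 and the elongase gene ELOVL2. Both were lower than in the solvent controls, as was FADS3 beside the set. None was called higher by edgeR, where scdb alone was higher at an unadjusted p under 0.05 (28.1% of all genes passed that in either direction). DESeq2 called 3 members, with 3484 genes called in all, and limma-voom 2, with 2598 genes in all. Of all 22703 genes tested, edgeR called 11.2% in this comparison, 5.44% as lower and 5.79% as higher. That count of 2550 genes was itself unsteady: it was 141 without exposed pool 3, 452 without control 2 and 0 when the FBSA libraries were fitted alone. The median log2 fold change of the 9 genes was -0.10, and 6 of 9 were below 0, against 51.2% of all genes.

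**Figure D1:**
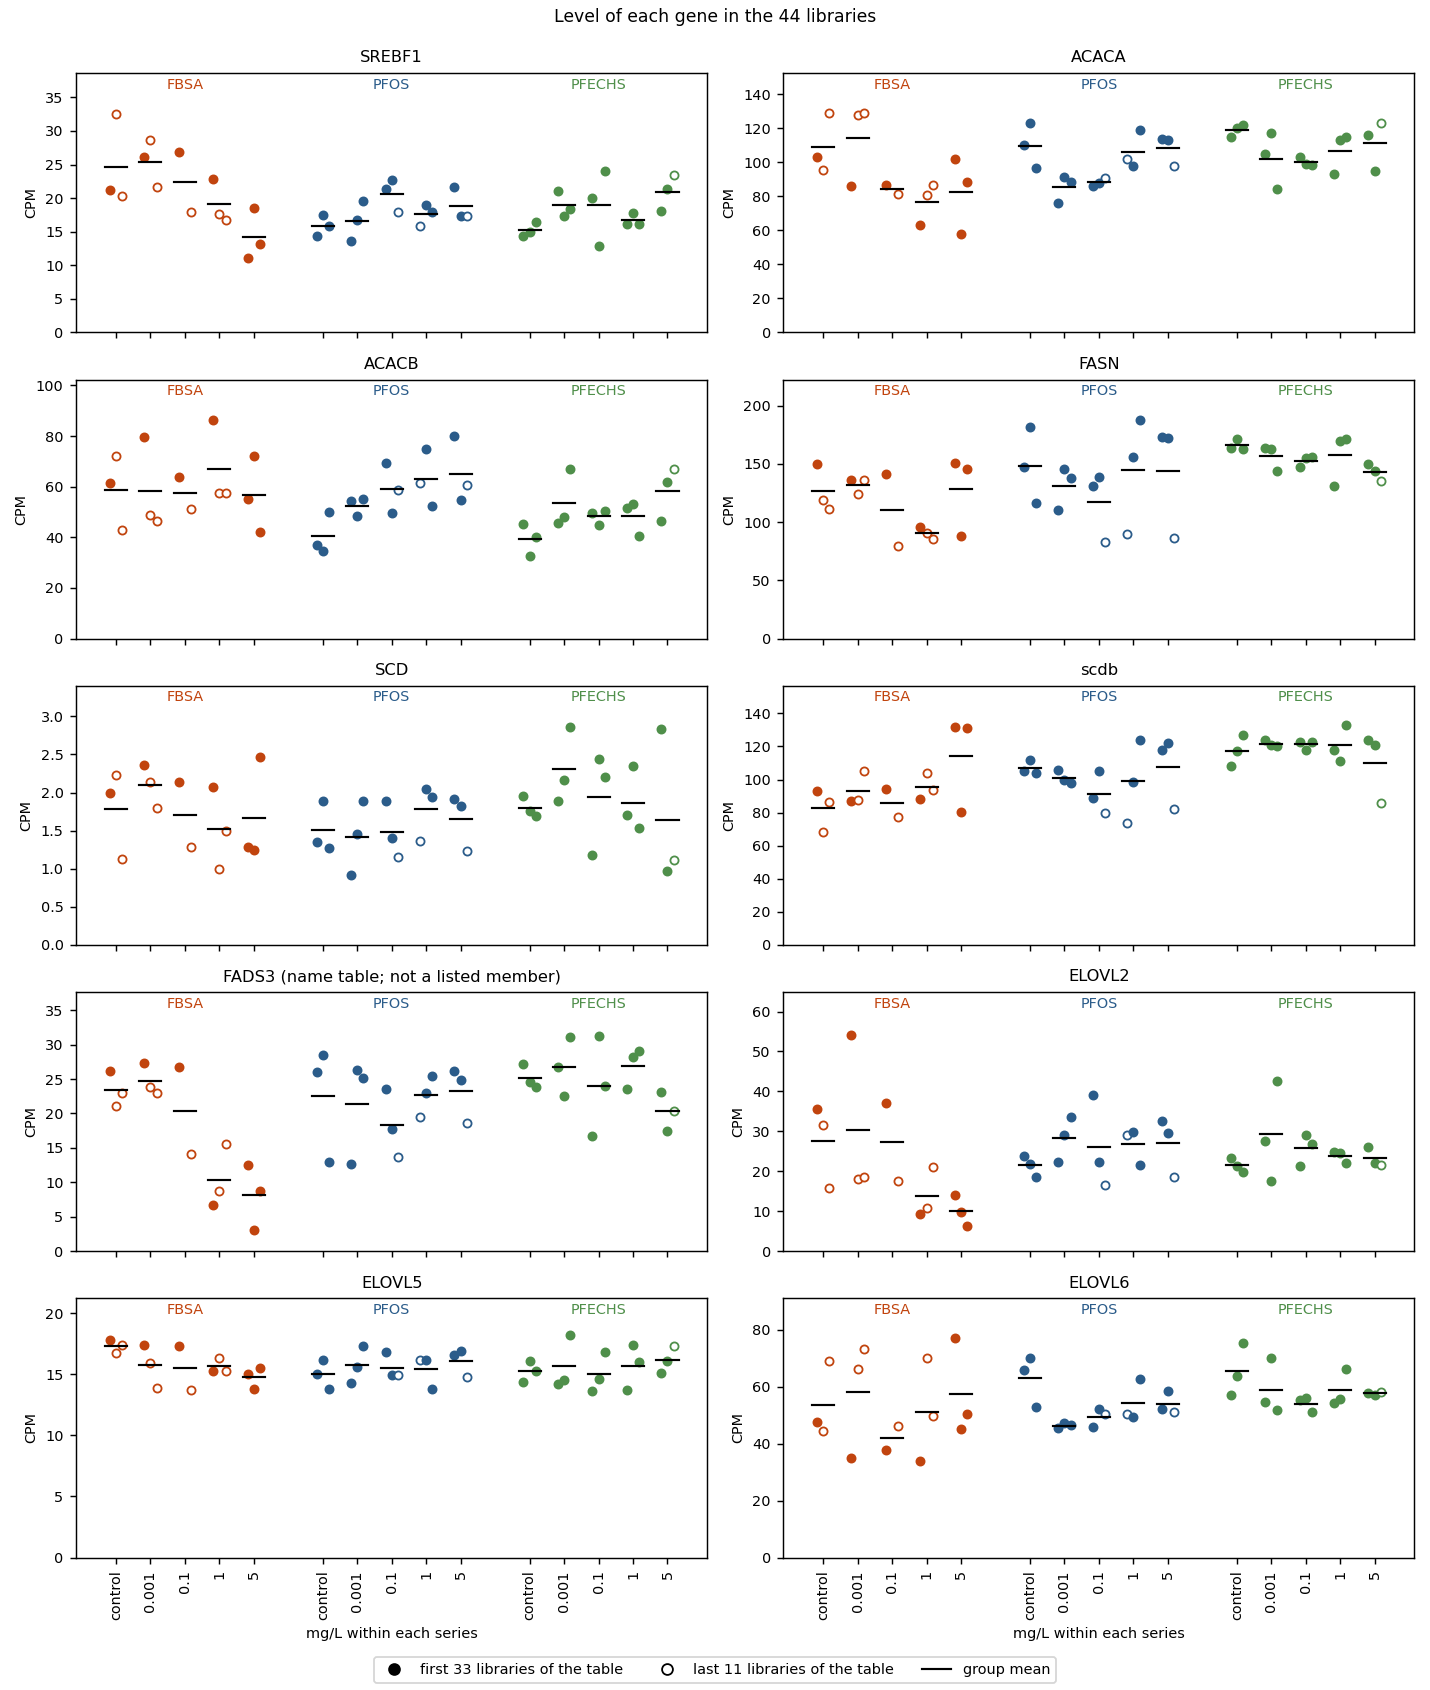
CPM of each gene (vertical axis, from 0) in every library, by concentration in mg/L within the FBSA, PFOS and PFECHS series. Filled points are the first 33 libraries of the table, open points the last 11, and black lines group means. All 3 pools at 5 mg/L FBSA lie below their 3 controls for SREBF1, ELOVL2, ELOVL5 and FADS3, while FASN and SCD overlap.

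SREBF1 (ENSDARG00000067607) had 11.1, 18.5 and 13.2 CPM in the 3 pools at 5 mg/L FBSA, against 21.2, 32.5 and 20.3 CPM in their controls. The exposed pools all lay below the controls, and control 2 stood well above the other two. Its level at 5 mg/L was 0.579 times that of the controls, a log2 fold change of -0.79 ± 0.20 (SE; edgeR quasi-likelihood test, adjusted p = 0.0133). The SREBF1 call was lost on leaving out control 2 (-0.54, adjusted p = 0.168), exposed pool 1 (-0.64, adjusted p = 0.0629) or exposed pool 3 (-0.74, adjusted p = 0.127), on fitting the FBSA libraries alone (adjusted p = 0.21) and in the first 33 libraries of the table, where control 1 is the sole FBSA control (-0.56, adjusted p = 0.199).

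Below 5 mg/L the pools of SREBF1 overlapped their controls. They had 26.1, 28.6 and 21.6 CPM at 0.001 mg/L, 26.8 and 18 CPM at 0.1 mg/L, and 22.9, 17.6 and 16.7 CPM at 1 mg/L. The log2 fold changes were 0.04, -0.14 and -0.37 in that order, and none passed the test. Over the 5 steps from control to 5 mg/L the trend was -0.20 ± 0.05 log2 units per step (SE, adjusted p = 0.00491), a call lost without control 2 (-0.15, adjusted p = 0.0556), in the FBSA libraries alone (0.171) and in the first 33 libraries with their 1 FBSA control (-0.13, adjusted p = 0.168).

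The FBSA controls also stood apart from the controls of the other series in this gene. They averaged 24.7 ± 6.84 CPM, against 15.9 ± 1.57 CPM in the PFOS controls and 15.2 ± 1.07 CPM in the PFECHS controls (SD, n = 3 each). The log2 difference was 0.63 ± 0.20 from the PFOS controls (SE, adjusted p = 0.115) and 0.69 ± 0.20 from the PFECHS controls (adjusted p = 0.0678), neither past the threshold. Between these controls 18.3% (PFOS) and 22.8% (PFECHS) of all genes had an unadjusted p under 0.05, so SREBF1 was 1 of many. Set against the 30 PFOS and PFECHS libraries, which ranged from 12.9 to 24.1 CPM, 1 of the 3 FBSA pools at 5 mg/L lay below the lowest, and 20 of the 30 lay below the highest of them. Within the FBSA series the groups at 0.001 and 0.1 mg/L averaged 25.4 ± 3.58 (SD, n = 3) and 22.4 ± 6.23 CPM (n = 2), near the controls. The part of the level of the FBSA controls in the result was not tested.

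Acetyl-CoA carboxylase has 2 genes in the set. In mammals ACACA encodes the cytosolic form that feeds synthesis, and ACACB the form at the mitochondrial surface whose malonyl-CoA restrains fatty acid import for oxidation. ACACA (ENSDARG00000078512) had 102, 57.8 and 88.5 CPM in the pools at 5 mg/L FBSA, against 103, 95.4 and 129 CPM in the controls. Exposed pool 1 reached into the control range and pool 2 was far below it. The log2 fold change was -0.40 ± 0.17 (SE, adjusted p = 0.11), not past the threshold. It was called in 1 of 6 fits without a library, that without exposed pool 1 (-0.59, adjusted p = 0.0385). Of 10 other alternatives 1 called it, with the first principal component as a term (-0.60, adjusted p = 0.000417).

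ACACA was lowest at 1 mg/L, where the pools had 62.9, 80.7 and 86.5 CPM and all lay below the controls, as did the 2 pools at 0.1 mg/L with 86.9 and 81.3 CPM. Of all genes, 2.94% lay below their controls in this way at 1 mg/L and 7.73% at 0.1 mg/L. At 0.001 mg/L it had 86.0, 128 and 129 CPM, spread across the control range. The change at 1 mg/L was -0.51 ± 0.17 (SE, unadjusted p = 0.00436, adjusted p = 0.495). As a trend over all concentrations ACACA fell by 0.14 ± 0.04 log2 units per step (SE, adjusted p = 0.0156), a call that was lost without control 3 (adjusted p = 0.0636), without exposed pool 2 (0.0548) or pool 3 (0.0587) at 5 mg/L, in the FBSA libraries alone (0.261) and in the first 33 libraries with their 1 FBSA control (0.199).

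ACACB (ENSDARG00000061994) showed no detectable change in the FBSA series. It had 55.2, 72.3 and 42.2 CPM at 5 mg/L, against 61.4, 72.0 and 42.8 CPM in the controls, and the pools of each group spanned nearly the same range. The log2 fold change was -0.05, with a 95% interval from -0.52 to 0.41. Within FBSA groups ACACB and ACACA went opposite ways from pool to pool, with a Pearson r of -0.84 between them (log2 CPM centred on group means, 14 libraries).

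Fatty acid synthase, FASN (ENSDARG00000087657), makes palmitate from the malonyl-CoA that the carboxylases supply. It had 151, 88.3 and 146 CPM at 5 mg/L FBSA, against 150, 119 and 111 CPM in the controls, so the groups overlapped from end to end. Its log2 fold change was 0.02 with a 95% interval from -0.47 to 0.51, and its sign turned in several of the alternative fits. At 1 mg/L FASN was at 95.7, 90.5 and 85.3 CPM, below every control, with a change of -0.48 ± 0.24 (SE, unadjusted p = 0.0532, adjusted p = 0.754). All pools at 1 mg/L lay below the controls in 3 of the 9 genes (ACACA, FASN and ELOVL5), against 2.94% of all genes. They lay above in 0 of the 9, against 3.27%. The 1 mg/L group and the controls each have 2 of their 3 pools among the last 11 columns of the table, and the 5 mg/L group has 0. The part of place in the low FASN at 1 mg/L was not tested. FASN had the smallest p of the members for place in the table, with a log2 difference of -0.50 ± 0.10 in the last 11 against the first 33 (SE, adjusted p = 0.000368).

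Of the desaturase genes, SCD (ENSDARG00000033662) was sparse, with 27 to 89 counts in a library. It had 1.29, 1.24 and 2.47 CPM at 5 mg/L FBSA, against 2.00, 2.23 and 1.13 CPM in the controls. Each group had 1 pool apart from the other two, and the ranges overlapped. The log2 fold change was -0.10 with a 95% interval from -0.85 to 0.65.

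The second stearoyl-CoA desaturase gene, scdb (ENSDARG00000030265), had a fold change of the opposite sign. It had 132, 80.5 and 131 CPM at 5 mg/L FBSA, against 93.3, 68.2 and 86.4 CPM in the controls. Exposed pools 1 and 3 exceeded every control and pool 2 did not. For scdb the log2 fold change was 0.47 ± 0.17 (SE, adjusted p = 0.0702), short of the threshold in edgeR's test, and 0.49 in DESeq2's (adjusted p = 0.0421). At 0.001, 0.1 and 1 mg/L the log2 fold changes of scdb were 0.18, 0.06 and 0.20, and the trend was 0.10 ± 0.04 per step (SE, adjusted p = 0.0982). Its FBSA controls averaged 82.6 ± 13 CPM, below those of PFOS at 107 ± 4.40 CPM and PFECHS at 117 ± 9.11 CPM (SD, n = 3 each). The log2 difference between controls was -0.50 ± 0.17 from PFECHS (SE, adjusted p = 0.0923).

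FADS3, which may be the listed fads2, had the clearest drop of the genes described. Its family includes desaturases of polyunsaturated chains. FADS3 had 12.5, 3.12 and 8.75 CPM at 5 mg/L FBSA, against 26.1, 21.1 and 22.9 CPM in the controls. Every exposed pool was far below every control. FADS3 was at 0.347 times the control level, a log2 fold change of -1.53 ± 0.35 (SE, adjusted p = 0.00652). The pools at 1 mg/L, with 6.65, 8.78 and 15.6 CPM, were also all below the controls (-1.17 ± 0.35, SE, unadjusted p = 0.00182, adjusted p = 0.411), while those at 0.1 mg/L, with 26.7 and 14.1 CPM, and at 0.001 mg/L, with 27.4, 23.8 and 23.0 CPM, were not. The trend was -0.43 ± 0.08 per step (SE, adjusted p = 0.000698), and was not called in the FBSA libraries alone (adjusted p = 0.125). The call at 5 mg/L was lost without exposed pool 3 (adjusted p = 0.0628) and in the FBSA libraries alone (0.196). In the first 33 libraries, against 1 FBSA control, it was also lost, with a larger fold change (-1.68, adjusted p = 0.0587).

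ELOVL2 (ENSDARG00000045414), an elongase of long polyunsaturated chains on the way to docosahexaenoic acid, was the member of the set with the largest change. It had 14.1, 9.75 and 6.21 CPM at 5 mg/L FBSA, against 35.6, 31.5 and 15.8 CPM in the controls. Exposed pool 1 came near control 3 without reaching it, and the other pools were far apart. The level was 0.363 times that of the controls, a log2 fold change of -1.46 ± 0.39 (SE, adjusted p = 0.0163). ELOVL2 lost its call without control 1 (adjusted p = 0.0524), control 2 (0.0862) or exposed pool 3 (0.175) and in the FBSA libraries alone (0.234).

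The lower concentrations of FBSA gave ELOVL2 values that scattered widely. The pools had 54.0, 18.2 and 18.7 CPM at 0.001 mg/L, 37 and 17.6 CPM at 0.1 mg/L, and 9.42, 10.9 and 21.1 CPM at 1 mg/L. At 1 mg/L only the highest pool overlapped the controls, and the log2 fold change was -1.0 ± 0.38 (SE, unadjusted p = 0.0141, adjusted p = 0.565). ELOVL2 fell by 0.41 ± 0.09 log2 units per step along the FBSA series (SE, adjusted p = 0.00322), which the FBSA libraries alone did not call (adjusted p = 0.176). All 3 pools at 5 mg/L lay below the lowest of the 30 PFOS and PFECHS libraries, which was 16.7 CPM, and the same held for FADS3, where the lowest of the 30 was 12.7 CPM.

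ELOVL5 (ENSDARG00000004979), an elongase of shorter polyunsaturated chains, was the steadiest of the set, with a ratio of highest to lowest library of 1.34, against 8.69 for ELOVL2. It had 15.0, 13.8 and 15.5 CPM at 5 mg/L FBSA, against 17.8, 16.7 and 17.4 CPM in the controls. The groups did not overlap, but the log2 fold change was -0.23 ± 0.12 (SE, adjusted p = 0.193). Non-overlap of this kind, with the exposed pools below, was seen in 3 of the 9 genes (SREBF1, ELOVL2 and ELOVL5) and in 9.27% of all genes. With the exposed pools above, it was seen in 0 of the 9 and in 8.07% of all genes.

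ELOVL6 (ENSDARG00000004402), which lengthens the palmitate made by fatty acid synthase, had 76.9, 45.1 and 50.2 CPM at 5 mg/L FBSA, against 47.5, 44.4 and 69.1 CPM in the controls. Both groups held 1 pool well above the other two, and they overlapped. ELOVL6 had a log2 fold change of 0.10 with a 95% interval from -0.35 to 0.54. The within-group SD of ELOVL6 in log2 CPM was 0.43 in the FBSA series, against 0.14 in the PFOS and 0.16 in the PFECHS series.

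Along the whole FBSA series 3 of the 9 genes had a trend past the threshold and all 3 were downward (SREBF1, ACACA and ELOVL2), against 11.2% of all genes in either direction, 5.57% downward and 5.61% upward. At 1 mg/L alone 0 of the 9 were called by edgeR, DESeq2 or limma-voom, where 0% of all genes were called by edgeR, and 2 of the 9 (ACACA and ELOVL2) had an unadjusted p under 0.05, as did 6.6% of all genes. At 0.1 and 0.001 mg/L, 0 of the 9 were called by any of these tools, as were 0% of all genes by edgeR, and 0 had an unadjusted p under 0.05, against 3.22% and 1.14% of all genes. The 4 concentrations share the same 3 controls.

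**Figure D2:**
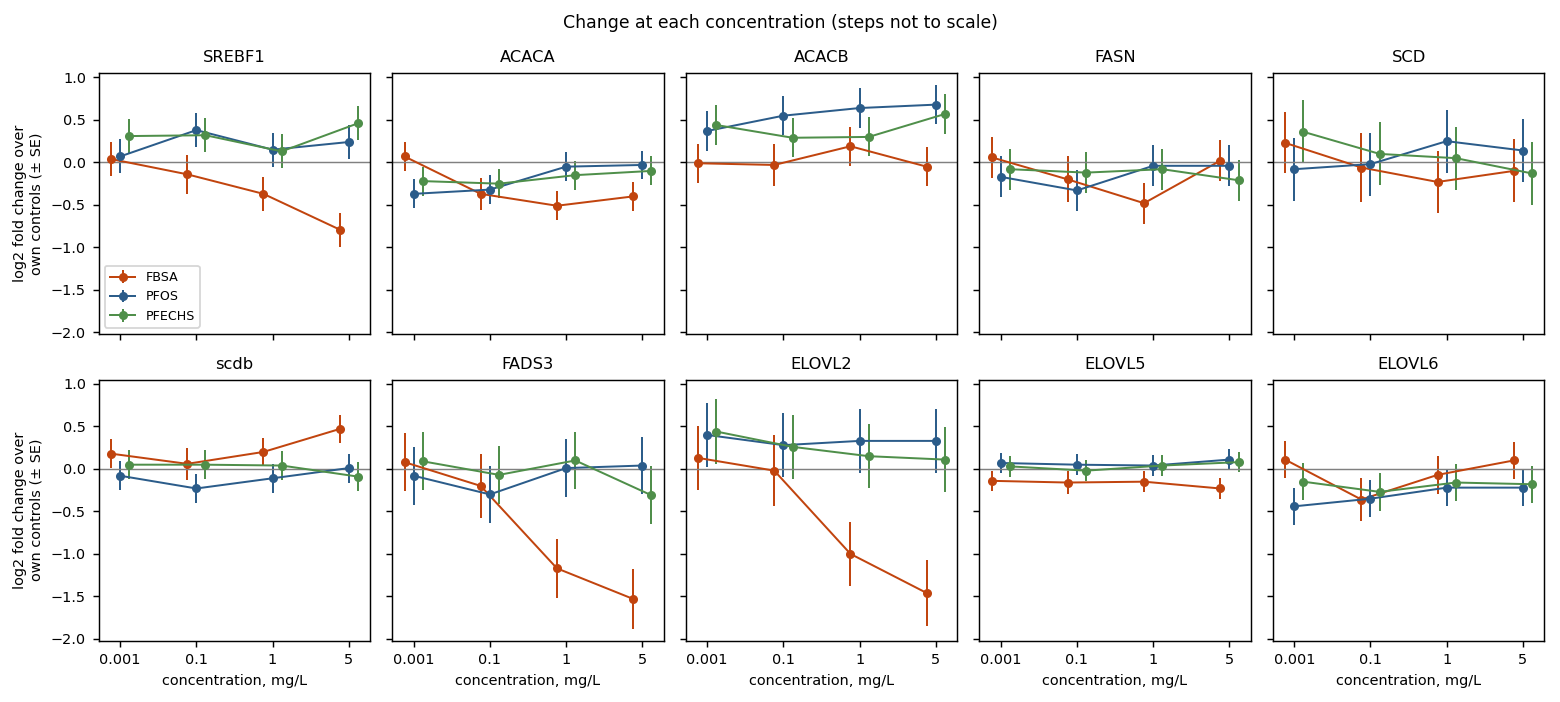
Log2 fold change (± SE) of each gene over its own solvent controls at the 4 concentrations in mg/L, which are drawn at even steps, for FBSA, PFOS and PFECHS. ELOVL2 and FADS3 lie between -0.20 and 0.13 at 0.001 and 0.1 mg/L FBSA and at or below -1.0 at 1 and 5 mg/L, SREBF1 reaches -0.79 at 5 mg/L, and ACACB lies above 0 at every concentration of PFOS and PFECHS.

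In the PFOS series 0 of the 9 genes were called at any concentration by edgeR, DESeq2 or limma-voom. The share of all genes called by edgeR was 0.0132% at 5 mg/L, 0.00881% at 1 mg/L, 0.0176% at 0.1 mg/L and 0% at 0.001 mg/L. Just 1 of the 9 had an unadjusted p under 0.05 at each concentration: ACACA at 0.001 mg/L, where 6.77% of all genes did, and ACACB at 0.1 (15.1%), 1 (7.88%) and 5 mg/L (7.98%). ACACB, at the highest concentration, had 80.1, 54.6 and 60.6 CPM in the exposed pools, against 37.1, 34.6 and 50.0 CPM in the PFOS controls. The groups did not overlap, with the exposed pools above, as in 1 of the 9 genes and 11.1% of all genes. The log2 fold change of ACACB was 0.68 ± 0.23 (SE, unadjusted p = 0.00516, adjusted p = 0.374).

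ACACB was above the PFOS controls on average at every concentration, with log2 fold changes of 0.37, 0.55, 0.64 and 0.68 from 0.001 to 5 mg/L, all measured against the same 3 controls. The pools had 54.2, 48.4 and 55.0 CPM at 0.001 mg/L, 69.2, 49.5 and 58.8 CPM at 0.1 mg/L and 61.5, 75.0 and 52.3 CPM at 1 mg/L. Of the 12 exposed pools, 2 lay within the control range, 1 at 0.001 and 1 at 0.1 mg/L. The trend was 0.16 ± 0.05 log2 units per step (SE, unadjusted p = 0.00307, adjusted p = 0.199), where 0.348% of all genes had a called trend. The ACACB controls averaged 40.6 ± 8.25 CPM in the PFOS and 39.4 ± 6.40 CPM in the PFECHS series, against 58.7 ± 14.8 CPM in the FBSA series (SD, n = 3 each). The part of this control level in the ACACB changes was not tested.

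None of the other members passed in the PFOS series either. SREBF1 at 5 mg/L had 21.6, 17.4 and 17.3 CPM, against 14.4, 17.5 and 15.8 CPM in the controls, a log2 fold change of 0.24 ± 0.20 (SE, adjusted p = 0.795). ELOVL2 had 32.7, 29.7 and 18.7 CPM, against 23.8, 21.9 and 18.7 CPM, and overlapped. ELOVL6 was below its controls on average at every PFOS concentration (-0.44, -0.35, -0.22 and -0.22 from 0.001 to 5 mg/L), and at 0.001 mg/L its pools, with 45.3, 47.1 and 46.5 CPM, all lay under the controls, with 65.9, 69.9 and 52.9 CPM. At that concentration the log2 fold change of ACACA was -0.37 ± 0.17 (SE, unadjusted p = 0.0334, adjusted p = 0.612). The groups did not overlap for ACACA and ELOVL6, or 2 of the 9 genes with the exposed pools below, against 15% of all genes.

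In the PFECHS series, too, 0 of the 9 genes were called at any concentration by edgeR, DESeq2 or limma-voom, and 0% of all genes were called by edgeR at each of them. The trend called 0 of the 9 and 0% of all genes. An unadjusted p under 0.05 was reached by 2 of the 9 at 5 mg/L, against 7.03% of all genes, and by 0 of the 9 at 0.001, 0.1 and 1 mg/L, against 3.77%, 3.72% and 1.87%. ACACB had 46.4, 61.8 and 66.8 CPM, against 45.4, 32.7 and 40.0 CPM in the PFECHS controls, a log2 fold change of 0.57 ± 0.23 (SE, unadjusted p = 0.0182, adjusted p = 0.704). SREBF1 had 18.1, 21.3 and 23.4 CPM, against 14.3, 15.0 and 16.4 CPM, a change of 0.46 ± 0.20 (SE, unadjusted p = 0.0311, adjusted p = 0.704). Neither gene's groups overlapped, though the lowest exposed ACACB pool was only just above the highest control. FASN had 150, 144 and 135 CPM at 5 mg/L PFECHS, against 164, 171 and 163 CPM, and did not overlap either, with a change of -0.21 ± 0.24 (SE, adjusted p = 0.858). With the exposed pools above, 2 of the 9 genes had groups that did not overlap, against 11.4% of all genes, and with the exposed pools below 1 of the 9, against 11.1%.

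**Figure D3:**
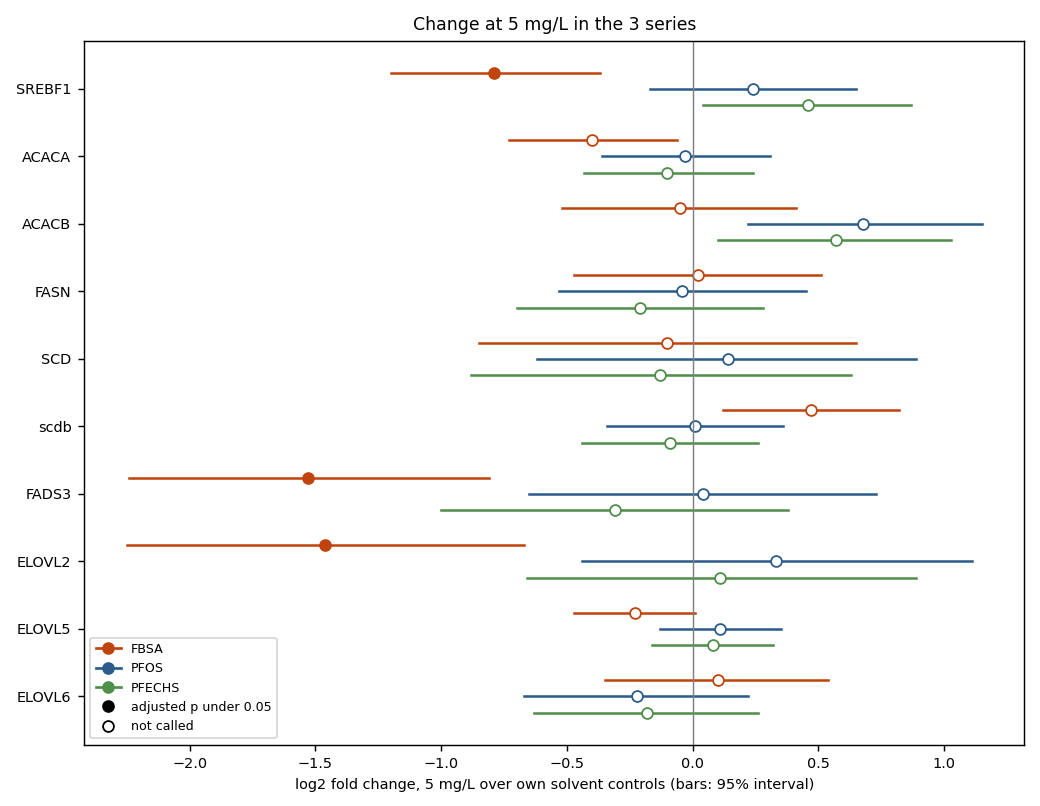
Log2 fold change of each gene at 5 mg/L over the compound's own solvent controls, with 95% intervals as bars, for FBSA, PFOS and PFECHS from top to bottom within each gene. Filled points passed an adjusted p of 0.05: SREBF1 (-0.79), ELOVL2 (-1.46) and FADS3 (-1.53), all in the FBSA series. The open points of ACACB lie at 0.68 for PFOS and 0.57 for PFECHS.

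The changes produced by the 3 compounds were then set against each other at matched concentrations, each difference being one compound's change from its controls minus another's. Between FBSA and PFOS at 5 mg/L, 2 of the 9 genes differed, where 4.92% of all genes did. The change of SREBF1 was lower under FBSA by a log2 difference of -1.03 ± 0.29 (SE, 95% interval -1.61 to -0.45, adjusted p = 0.0366), and that of ELOVL2 by -1.79 ± 0.54 (95% interval -2.90 to -0.69, adjusted p = 0.049). For FADS3 the difference was -1.57 (95% interval -2.56 to -0.58, adjusted p = 0.0528). In ACACB it was -0.74 (95% interval -1.39 to -0.08, adjusted p = 0.156), which did not pass.

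Between FBSA and PFECHS at 5 mg/L, 1 of the 9 differed, where 9.17% of all genes did. This was SREBF1, with a log2 difference of -1.24 ± 0.29 (SE, 95% interval -1.83 to -0.66, adjusted p = 0.01). The difference in ELOVL2 was -1.57 (95% interval -2.68 to -0.47, adjusted p = 0.0615), in scdb 0.56 (95% interval 0.06 to 1.05, adjusted p = 0.133) and in FADS3 -1.22 (95% interval -2.21 to -0.23, adjusted p = 0.1), none of them past the threshold. Leaving out 1 of the 12 libraries in turn kept the call against PFOS in 4 of 12 fits for SREBF1 (-1.26 to -0.78) and in 3 of 12 for ELOVL2 (-2.12 to -1.53). The call of ELOVL2 against PFOS also did not hold in limma-voom (adjusted p = 0.0596) or without the low-count filter (0.0537), and that of SREBF1 against PFECHS was lost without FBSA control 2 (-0.99, adjusted p = 0.062) and in the first 33 libraries with their 1 FBSA control (-0.92, adjusted p = 0.115).

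PFOS and PFECHS, which share the sulphonate head and differ in chain and ring, were not told apart in any of the 9 genes at 5 mg/L by edgeR, where 0% of all genes differed and 0 of the 9 had an unadjusted p under 0.05, against 1.06% of all genes. The log2 differences ran from -0.22 in SREBF1 to 0.26 in SCD. Their 95% intervals still allow sizeable differences, from -0.88 to 1.31 in ELOVL2 and from -0.31 to 0.37 in ELOVL5. Below 5 mg/L 0 of the 9 genes differed between any 2 compounds, as did 0% of all genes in each of those comparisons. By unadjusted p under 0.05, 1 of the 9, ELOVL2, passed at 1 mg/L in FBSA minus PFOS (-1.32), where 8.26% of all genes did, and in FBSA minus PFECHS (-1.14), where 3.45% did. In the other comparisons below 5 mg/L it was 0 of the 9, against 0.947% to 4.97% of all genes.

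The other genes of the pathway came from 6 lists of suppliers, regulators and partners, of which 58 of 60 identifiers could be tested. Under FBSA at 5 mg/L, 2 of the 58 were called higher and 5 lower, close to the 11.2% of all genes called, with a median log2 fold change of -0.07. By list, the lower calls fell on 1 of 9 genes of acetyl-CoA and NADPH supply and 1 of 8 genes of SREBP processing. They also fell on 1 of 9 genes of a mixed list accessory to the carboxylases and synthase. The others were 1 of 11 genes of the elongation cycle and 1 of 14 genes of fatty acid activation and glycerolipid assembly. The 2 higher calls fell on that mixed list, in BCKDK, and on the elongation cycle. Of 7 other elongases 0 were called by edgeR at 5 mg/L, and 1 of them had an unadjusted p under 0.05, against 28.1% of all genes. The alternative fits were not followed for single pathway genes. In the FBSA libraries alone 0 of all genes were called at 5 mg/L, so the pathway calls at 5 mg/L against controls are lost there. Without exposed pool 3, 141 genes in all were called.

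SCAP, the escort that carries SREBP precursors to the Golgi, had 7.26, 12.3 and 7.48 CPM at 5 mg/L FBSA, against 14.0, 19.6 and 13.5 CPM in the controls. All exposed pools were below all controls, and pool 2 was the highest exposed pool for SCAP as it was for SREBF1. For SCAP this was a log2 fold change of -0.80 ± 0.22 (SE, adjusted p = 0.0173). It differed from the change under PFOS by -1.06 (adjusted p = 0.0421) and under PFECHS by -1.47 (adjusted p = 0.00654). insig1, whose product holds SCAP back in the endoplasmic reticulum, had a log2 fold change of 0.36 ± 0.33 (SE, adjusted p = 0.502), and srebf2, the sterol-oriented relative of SREBF1, one of -0.20 ± 0.14 (adjusted p = 0.337).

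PGD, an enzyme of the pentose phosphate pathway that yields NADPH for synthesis, had 61.2, 40.1 and 38.8 CPM at 5 mg/L FBSA, against 70.0, 79.0 and 63.5 CPM in the controls. The groups did not overlap, and the log2 fold change was -0.60 ± 0.14 (SE, adjusted p = 0.0068). The 2 identifiers of ACLY, which makes the acetyl-CoA that enters synthesis, had log2 fold changes of 0.10 ± 0.26 (ENSDARG00000055652, adjusted p = 0.84) and -0.12 ± 0.16 (ENSDARG00000099079, adjusted p = 0.667).

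Within the elongation cycle, whose further steps follow each condensation by an elongase, 2 genes moved in opposite directions at 5 mg/L FBSA. HSD17B12, the ketoacyl-CoA reductase (ENSDARG00000015709), had 50.2, 38.0 and 45.6 CPM, against 30.2, 24.6 and 31.8 CPM in the controls, and rose by 0.63 ± 0.19 (log2, SE, adjusted p = 0.0326). TECR, the enoyl-CoA reductase (ENSDARG00000025904), had 93.5, 132 and 72.5 CPM, against 161, 169 and 110 CPM, and fell by 0.56 ± 0.17 (log2, SE, adjusted p = 0.0263), with exposed pool 2 inside the control range. A second TECR identifier, ENSDARG00000101585, had a log2 fold change of -0.05 ± 0.37 (adjusted p = 0.948).

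lpin1b, a phosphatidate phosphatase of triglyceride assembly, had 1.88, 2.91 and 1.16 CPM at 5 mg/L FBSA, against 5.18, 7.39 and 3.94 CPM in the controls, a log2 fold change of -1.46 ± 0.34 (SE, adjusted p = 0.00731). BCKDK, the kinase of branched-chain ketoacid dehydrogenase that in mammals also acts on ATP-citrate lyase, had 79.3, 72.5 and 86.3 CPM, against 69.5, 59.4 and 58.8 CPM, a rise of 0.34 ± 0.09 (SE, adjusted p = 0.0197). PRKAA2, a catalytic subunit of the AMP-activated kinase that inactivates acetyl-CoA carboxylase, was scarce, with 0.479, 1.09 and 0.459 CPM, against 1.72, 2.44 and 0.963 CPM, a change of -1.32 ± 0.44 (SE, adjusted p = 0.0497), and its groups overlapped. The change of lpin1b differed from those under PFOS (-2.13, adjusted p = 0.015) and PFECHS (-1.99, adjusted p = 0.012), and so did that of BCKDK (0.62, adjusted p = 0.012, and 0.49, adjusted p = 0.0233). The FBSA controls of BCKDK were, however, already lower than the PFOS controls, by a log2 difference of -0.48 ± 0.09 (SE, adjusted p = 0.0399).

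Along the FBSA series, too, 2 of the 58 pathway genes had a called upward trend and 5 a downward one, against 5.61% and 5.57% of all genes. The downward trends were those of lpin1b (-0.36 per step, adjusted p = 0.00279), PGD (-0.14, adjusted p = 0.0045), SCAP (-0.15, adjusted p = 0.0383), the elongase elovl8a (-0.27, adjusted p = 0.0169) and the acyl-CoA synthetase ACSL5 (-0.63, adjusted p = 0.0297). BCKDK and a second acyl-CoA synthetase, ACSL1, had upward trends of 0.08 (adjusted p = 0.0152) and 0.07 (adjusted p = 0.0324). Under PFOS or PFECHS at 5 mg/L 0 of the 58 were called by edgeR, against 0.0132% and 0% of all genes. An unadjusted p under 0.05 was reached by 3 and 2 of them, against 7.98% and 7.03% of all genes.

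Markers of intestine were lower in the same pools, and those of other tissues were mostly not called. Of 11 intestinal marker identifiers 6 were called lower at 5 mg/L FBSA and 0 higher, against 5.44% and 5.79% of all genes. Their median log2 fold change was -1.89, and their summed level was 115 to 282 CPM in the exposed pools, against 274 to 962 CPM in the controls. Of 9 liver markers 0 were called (median -0.77), with sums of 90.6 to 278 CPM against 120 to 531 CPM, and of 8 markers of the yolk syncytial layer, which exports yolk lipid, 0 were called (median -0.93), with 549 to 1280 CPM against 556 to 1920 CPM. Neuronal markers had 1 of 9 called, as higher, and a median of 0.11, with sums of 2830 to 4830 CPM against 2720 to 4090 CPM. Markers of swim bladder and skin had 0 of 6 called and a median of 0.02, with sums of 6840 to 9520 CPM against 4220 to 10700 CPM. By unadjusted p under 0.05, 1 of the 9 liver, 2 of the 8 yolk and 1 of the 6 swim bladder and skin markers passed, against 28.1% of all genes. The marker calls, too, are lost in the FBSA libraries alone, where 0 of all genes were called at 5 mg/L. No marker was at 0 in any library. The marker lists were chosen with earlier results of these data known.

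Over the 14 FBSA libraries the log2 level of ELOVL2 ran with that of the intestinal markers (Pearson r of 0.92), that of FADS3 less so (0.57), and that of SREBF1 likewise (0.59). ELOVL2 also ran with the markers of yolk (0.73) and liver (0.65). SREBF1 ran about as closely with those of liver (0.56) and yolk (0.50), and against the neuronal ones (-0.58). ELOVL6 ran with the neuronal markers (0.92) and against those of liver (-0.86), swim bladder and skin (-0.86) and yolk (-0.81). ACACB ran against the neuronal markers (-0.82) and with those of liver (0.69) and yolk (0.64). Most of these genes thus followed several lists at once. These correlations describe libraries that share exposures and differ along the first principal component. The part of tissue make-up in the changes of ELOVL2, FADS3 and SREBF1 was not tested. Under PFOS and PFECHS at 5 mg/L 0 of the 43 markers were called by edgeR, against 0.0132% and 0% of all genes. An unadjusted p under 0.05 was reached by 2 and 1 of them, against 7.98% and 7.03% of all genes.

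Within groups, the members did not vary as a block. Over all 44 libraries, with each group's mean removed, ACACA ran with ELOVL6 (Pearson r of 0.78) and FASN with scdb (0.75), while ACACB ran against ACACA (-0.69) and ELOVL6 (-0.70). ELOVL2 and FADS3, the genes with the largest drops at 5 mg/L FBSA, had an r of 0.54. SREBF1 had an r of 0.18 with FASN, of 0.13 with ELOVL2 and of -0.29 with ACACA. In the FBSA libraries alone the last of these was -0.65.

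**Figure D4:**
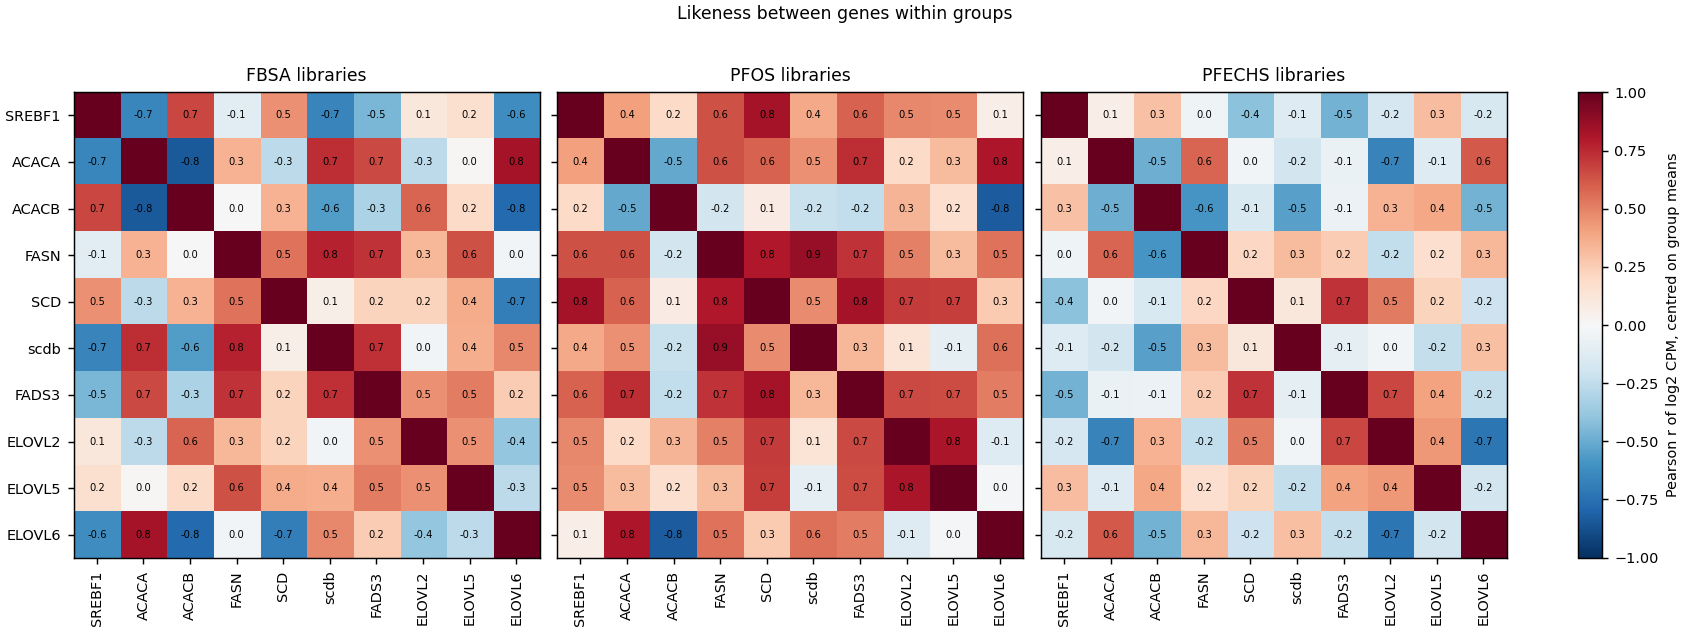
Pearson r between genes in log2 CPM, with each group's mean removed, in the FBSA (left), PFOS (middle) and PFECHS (right) libraries. Red is positive and blue negative. ACACA and ACACB run against each other in each series, at -0.84 in the FBSA libraries, and FASN runs with scdb at 0.77 in FBSA and 0.87 in PFOS libraries, against 0.32 in PFECHS libraries.

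Spread within groups differed between series for some members. The SD in log2 CPM of ELOVL2 was 0.71 in the FBSA series, against 0.39 and 0.32 in the PFOS and PFECHS series, and that of SREBF1 was 0.33, against 0.18 and 0.24. The main fit took a single spread per gene from all series, so its SEs understate the spread of FBSA pools in these genes. In edgeR on the FBSA libraries alone neither was called at 5 mg/L (adjusted p = 0.234 for ELOVL2 and 0.21 for SREBF1). FASN varied most in the PFOS series (0.44) and little in the PFECHS series (0.12), and its 3 lowest PFOS libraries, at 82.6, 86.8 and 90.1 CPM, are the 3 of that series among the last 11 columns of the table. Place in the table also went with lower SCD (-0.54 ± 0.18, adjusted p = 0.0222), scdb (-0.27 ± 0.08, adjusted p = 0.0122) and ELOVL2 (-0.52 ± 0.19, adjusted p = 0.0377), and not detectably with SREBF1 (-0.13 ± 0.11, SE, adjusted p = 0.374) or FADS3 (-0.23 ± 0.19, adjusted p = 0.37). With place as a term in the fit, the changes at 5 mg/L FBSA were -0.88 in SREBF1, -1.78 in ELOVL2 and -1.68 in FADS3, each past the threshold. No library of FBSA at 5 mg/L is among the last 11, so that term is set by the other groups. In the first 33 libraries, with 1 FBSA control, the changes were -0.56, -1.83 and -1.68 in that order. The part of place in these changes was not tested.

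The order of the 15 group means was loose. Between neighbours in that order, 0 to 2 of the 14 gaps exceeded the mean SD of the pair, depending on the gene. The lowest group mean was that of FBSA at 5 mg/L for SREBF1 (14.3 CPM), ELOVL2 (10 CPM), ELOVL5 (14.7 CPM) and FADS3 (8.12 CPM), and that of FBSA at 1 mg/L for ACACA (76.7 CPM) and FASN (90.5 CPM). The FBSA controls had the lowest mean for scdb (82.6 CPM) and the highest for ELOVL5 (17.3 CPM). For ACACA, FASN and ELOVL6 the PFECHS controls were highest, at 119, 166 and 65.3 CPM. For ACACB they were lowest, at 39.4 CPM, followed by the PFOS controls at 40.6 CPM.

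The genes whose level most resembled each member were taken as those with the highest Pearson r over the 44 libraries, in log2 CPM centred on each compound's series. ELOVL2 was most like SC5D (0.92), cyp2n13 (0.92) and GDA (0.91). SREBF1 was most like ago3a (0.83), ATXN1 (0.83) and HIPK2 (0.82). FASN was most like ACSL4 (0.87), ACSBG2 (0.86) and AHCYL1 (0.85), and scdb like RAC3 (0.95), slc24a6a (0.95) and ELMOD1 (0.94). ACACA was most like nme2a (0.91), RAD54L2 (0.91) and arhgap12a (0.90), and ACACB like ppp1r3ab (0.85), NFE2L1 (0.83) and PKD2L1 (0.83). ELOVL6 was most like ldhbb (0.94), SNAP25 (ENSDARG00000058117, 0.93) and calb2b (0.93), and FADS3 like rbp3, SQLE and MVD (0.84 each). The closest genes to ELOVL5 were ASNS (0.66), LHPP (0.64) and cela1.5 (0.60), and those to SCD were or93a7, xkr8.2 and insig1 (0.67 each), a looser likeness in the steadiest and the sparsest member.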

How the data were processed

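RNA from pools of whole embryos was sequenced, and the deposited values are estimated counts per gene. This unit was read from the values, since 54.1% to 79.8% of those in a library were fractional. Per the submitters' processing notes, Trimmomatic, FastQC and MultiQC were used on the reads. Neither the counting program nor the build is given in the sources used here, nor how the program split reads shared between related copies such as SCD and scdb or ACACA and ACACB, so these values are uncertain in that respect.

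Counts were rounded to whole numbers and tested in R 4.3.3 with edgeR 4.0.16 (filterByExpr by group, TMM, quasi-likelihood F test), with all 44 libraries in 1 model and 29 residual degrees of freedom. Groups came from the labels. The 30 contrasts were each concentration against its own controls, a linear trend for each compound over its controls and 4 rising concentrations taken as even steps, the difference between 2 compounds' changes at matched concentrations, and the 3 pairs of control groups. P-values were adjusted by Benjamini and Hochberg over all 22703 genes, with a threshold of 0.05. The SE was taken as |log2 fold change| over √F. Log2 CPM used a prior count of 2. The calculation was tested on simulated data with known changes at 5 mg/L FBSA. Table place and the wider spread of FBSA pools were not simulated. There 13 of 67 genes changed 1.5-fold were called, 25 of 67 changed 2-fold and 48 of 66 changed 4-fold, with 4 false calls.

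Members and lists were chosen with earlier results of these data known. All members are named, with FADS3 beside them. Of the pathway lists up to 6 called genes per contrast were named by p, with PRKAA2 added after its values were seen, plus ACLY, srebf2 and insig1. For likeness the 3 closest genes were named. Symbols came from a name table. The alternatives were other scalings, no filter, DESeq2 1.42.0, limma-voom 3.58.1, a replicate block, fits on the compounds compared, leaving out each library and, chosen after seeing the data, table place or the first principal component as a term and the first 33 libraries.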

Additional observations from a re-analysis of the deposited data

Results flagged for a closer look

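In 3 tests the change of a member at 5 mg/L differed between compounds. The change of SREBF1 under FBSA was lower than under PFOS by a log2 difference of -1.03 ± 0.29 (SE, adjusted p = 0.0366) and lower than under PFECHS by -1.24 ± 0.29 (adjusted p = 0.01). The change of ELOVL2 under FBSA was lower than under PFOS by -1.79 ± 0.54 (adjusted p = 0.049). In each case 3 of 3 FBSA pools lay below their own controls, and the FBSA controls of SREBF1 averaged 24.7 CPM, against 15.9 CPM in the PFOS and 15.2 CPM in the PFECHS controls. The part of those controls in the SREBF1 differences was not tested. With the first principal component as a term, both differences from PFOS fell short of the threshold. The difference of SREBF1 from PFECHS stayed past it (-1.08, adjusted p = 0.0118).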

How the results depend on the processing

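Every called member kept its direction under every alternative run. At 5 mg/L FBSA the log2 fold change of SREBF1 stayed between -1.02 and -0.54, that of ELOVL2 between -1.83 and -0.97 and that of FADS3 between -1.99 and -1.14. The calls were less steady. The count at 5 mg/L FBSA, 2 in the fit over all libraries, was 0 in the FBSA libraries alone, 1 in the first 33 libraries and 0 to 3 on leaving out a library, with 0 without control 2 or exposed pool 3. The trend count of 3 was 0 in the FBSA libraries alone, 1 in the first 33 and 2 to 3 on leaving out a library. For FBSA minus PFOS at 5 mg/L the count of 2 was 0 in those compounds alone, 1 without the low-count filter, with limma-voom, in the first 33 libraries and with the first principal component as a term, and 0 to 4 on leaving out a library. For FBSA minus PFECHS the count of 1 was 2 with upper-quartile factors, DESeq2, the replicate block, table place or the first principal component as a term, 0 in the first 33 libraries and 0 to 2 on leaving out a library. With that component as a term, 1 member was called at 1 mg/L FBSA and 1 in the PFOS trend, against 0 of each without it. At 5 mg/L FBSA it gave 3 called members, against 2, and 4529 called genes in all, against 2550. For FBSA minus PFOS neither SREBF1 (-0.86, adjusted p = 0.0518) nor ELOVL2 (-1.03, adjusted p = 0.125) was called under that term. The 1 member counted there was thus a different one. Among all genes, the number called at 5 mg/L FBSA was 0 in the FBSA libraries alone. It ran from 141 to 5197 on leaving out a library. The first 33 libraries hold 1 FBSA control, and those without a library leave a group of 2 or, at 0.1 mg/L FBSA, 1, so lone pools are assumed to vary like the other groups. The cause of these moves was not tested.

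At 5 mg/L FBSA the sign turned in members whose change was near 0. For FASN it was -0.05 with upper-quartile factors, -0.01 with limma-voom, -0.31 with table place, -0.22 in the first 33 libraries and -0.07 with the first principal component, which also gave 0.21 in ACACB, 0.09 in SCD and -0.18 in ELOVL6. On leaving out a library the ranges were -0.12 to 0.23 in FASN, -0.27 to 0.12 in ACACB, -0.49 to 0.10 in SCD and -0.18 to 0.33 in ELOVL6. Correlations of same-numbered pools across groups, with group means removed, ran from -0.48 to 0.61. Pools of FBSA replicate 1 mostly ran together, and those of the other numbers did not. The median was 0.45 for FBSA replicate 1 and from -0.20 to 0.16 for the other numbers of each series, and the replicate block left 2 members called at 5 mg/L FBSA. Outside 5 mg/L, however, FBSA replicate 1 lies in the first 33 columns and the other FBSA replicates in the last 11. Replicate number and table place cannot be told apart there. No scaling moved the median of all genes by over 0.1.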
